A study of Mus musculus with 44 samples.

Results

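Cebpb and Socs3 are genes next to which NF-kB was found after lipopolysaccharide (LPS), away from the genes themselves. They were chosen by their peaks in these same lists, so the peak values below are a description and no test is made on them. Their members are all peaks within 150 kb of either gene span. These are 10 of 15489 peaks, which fall at 7 separate sites of the 5605 joined regions of the series. Cebpb had 2 sites and Socs3 had 5. A site is a run of peaks that overlap by at least 1 bp across the lists.

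The cells were macrophages from C57BL/6 bone marrow, differentiated for 8 to 10 days in medium that held 10% serum and M-CSF at 30 ng/ml. They were wild type (WT) or lacked the DNA methyltransferase Dnmt3a (KO), and either stayed untreated or received 10 ng/ml LPS for 6 hours. The labels do not say how Dnmt3a was deleted or whether replicates were separate animals. Chromatin was sheared to 100 to 300 bp and precipitated with an IRF3 or an NF-kB antibody. The labels do not name the NF-kB subunit. Each of the 8 groups (factor, genotype and treatment) has 1 peak list that merges its replicates, 3 for each NF-kB list and 2 or 3 for each IRF3 list. The values below thus come without an error between replicates, and differences between lists are described and not tested. The read depth behind each list was not used here. The lists held 1169 to 3065 peaks, and their length was 2494 for NF-kB in WT with LPS and 2376 in KO with LPS. Neither the Dnmt3a deletion nor macrophage markers can be checked from peak positions.

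NF-kB is a family of dimeric transcription factors that inhibitor proteins hold in the cytoplasm until a signal such as LPS, acting through Toll-like receptor 4, releases them to the nucleus. Cebpb encodes C/EBP-beta, a basic leucine zipper transcription factor of myeloid cells that acts together with NF-kB at many inflammatory genes. Socs3 encodes a suppressor of cytokine signalling, which binds receptors of the IL-6 type and the kinase JAK2 and limits the activation of STAT3. Both genes are known to be induced in macrophages by inflammatory signals, and RNA was not analysed here.

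The sequence of 1 of the 7 sites could be read, and that site is shown for this reason. It also holds the best-ranked peaks of both genes' sites. This is the farther Cebpb site at chr2:167777416-167777871 (mm10). It lies over the starts of long non-coding RNA genes, so the RefSeq table of start windows (GRCm38.p6) covers all of its 456 bases. Its middle 300 bases are printed on the plus strand (chr2:167777494-167777793), followed by the start windows of Cebpb (chr2:167688665-167688964, plus strand) and Socs3 (chr11:117969317-117969616, minus strand), each from 250 bases before to 50 bases after the annotated start. Capitals mark matches to 4 motifs searched on both strands: the NF-kB consensus, C/EBP (TTGCNNAA), STAT (TTCNNNGAA) and AP-1 (TGANTCA).
Cebpb distal site: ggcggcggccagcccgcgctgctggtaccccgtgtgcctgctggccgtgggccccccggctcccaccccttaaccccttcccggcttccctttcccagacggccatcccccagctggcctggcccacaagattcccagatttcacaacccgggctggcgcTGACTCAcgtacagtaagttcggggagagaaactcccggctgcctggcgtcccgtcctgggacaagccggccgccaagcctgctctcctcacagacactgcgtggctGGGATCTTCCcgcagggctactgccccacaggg
Cebpb start: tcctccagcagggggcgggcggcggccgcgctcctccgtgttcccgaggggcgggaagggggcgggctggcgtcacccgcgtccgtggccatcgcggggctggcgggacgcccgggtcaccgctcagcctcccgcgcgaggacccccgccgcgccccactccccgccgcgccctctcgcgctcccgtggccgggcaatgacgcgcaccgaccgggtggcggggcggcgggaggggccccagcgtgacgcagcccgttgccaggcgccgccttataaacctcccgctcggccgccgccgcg
Socs3 start: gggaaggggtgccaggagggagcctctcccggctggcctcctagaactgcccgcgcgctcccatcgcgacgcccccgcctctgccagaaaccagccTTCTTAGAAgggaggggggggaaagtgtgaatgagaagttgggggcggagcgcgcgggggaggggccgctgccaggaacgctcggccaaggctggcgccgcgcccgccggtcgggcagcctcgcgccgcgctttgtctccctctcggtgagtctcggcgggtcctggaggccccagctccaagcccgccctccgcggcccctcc

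The distal site held 1 match to the NF-kB consensus, GGGATCTTCC at chr2:167777761-167777770, and 1 match to AP-1, TGACTCA at chr2:167777654-167777660. Neither a C/EBP nor a STAT match was found in its 456 bases. Among 32807 start windows of 300 bases, 8.46% held the NF-kB consensus, 7.82% the AP-1 motif, 10.8% the C/EBP motif and 8.29% the STAT motif. These shares are for 300 bases and are not matched to the 456 bases of the whole distal site. Both matches of that site lie in its printed 300 bases. The Cebpb start window held none of the 4 motifs. The Socs3 start window held 1 STAT match, TTCTTAGAA, which begins 154 bases before the start. The Socs3 start used here (117969366) and its window lie inside the gene span, which extends upstream to 117970336. None of the 8 lists had a peak over either start window. The whole distal site had 27 CpG dinucleotides and 66.9% G and C. The Cebpb window had 50 CpG in 300 bases (80.7% G and C) and the Socs3 window 31 (73.3%), against a median of 7 CpG over all start windows. A motif match describes these letters and does not show that a factor was bound through them.

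At Cebpb the same 2 sites were listed in both genotypes after LPS, and none was listed without LPS or for IRF3. Cebpb lies on chromosome 2 (167688915 to 167690432, plus strand), and both sites lie downstream of it. The nearer site spanned 190 bp in WT with LPS (chr2:167754016-167754205), 63583 bp from the gene. In KO with LPS it spanned 198 bp (chr2:167754022-167754219), 63589 bp from the gene. The farther site spanned 430 bp in WT (chr2:167777417-167777846) and 456 bp in KO (chr2:167777416-167777871), at 86984 and 86983 bp. The middles of the WT and KO peaks lay 10 bp apart at the nearer site and 12 bp apart at the farther one. Placed from the annotated start, the sites stood about 65.2 and 88.7 kb downstream, with 23.2 kb between them.

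Both Cebpb sites ranked high in their lists, which are ordered by the authors' deposited p-value. The farther site ranked 38 of 2376 in KO with LPS (deposited q-value 0.00146) and 134 of 2494 in WT with LPS (0.00916). The nearer site ranked 114 in KO (q-value 0.0131) and 358 in WT (0.0591). At a q-value under 0.05 the nearer site therefore remained in KO alone and the farther one in both genotypes. That cut kept 227 of the 2376 KO peaks and 330 of the 2494 WT peaks. Each of the 4 peaks had the top deposited score of 1000. Ranks in lists of different length do not show a change in binding.

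No protein-coding gene span covered either Cebpb site, and Cebpb was the nearest protein-coding gene to both. The next was Tmem189, at 92471 bp from the nearer site and 115871 bp from the farther one. Tmem189 and Ube2v1, upstream of Cebpb, also had both sites within 150 kb, so the window alone does not assign them to Cebpb. The nearer site overlapped no annotated gene of any kind, and the closest was the long non-coding RNA gene Gm52570 at 11751 bp. The farther site overlapped 2 long non-coding RNA genes whose spans overlap each other there, Gm14321 on the plus strand and Gm32287 on the minus strand. It contained the annotated start of Gm14321 (167777491) and 1 start of Gm32287 (167777712). Further Gm32287 starts lay 2 and 56 bases outside it.

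Among comparable sites, some covered a gene start and some lay far from protein-coding genes. Of 53 NF-kB sites under 500 bp that were listed in both genotypes with LPS, in neither untreated NF-kB list and in no IRF3 list, 6 contained an annotated start (11.3%, exact 95% binomial interval 4.27 to 23.0%, counting error only). In the same set, 12 lay more than 50 kb from any protein-coding gene (22.6%, 12.3 to 36.2%), and both Cebpb sites are among these 12. A wider set is all 186 NF-kB sites listed in both genotypes with LPS and in neither untreated NF-kB list, of any width. Of these, 35.5% lay that far (28.6 to 42.8%) and 3.23% contained a start (1.19 to 6.89%). Of the 444 sites listed for NF-kB in KO with LPS alone, 32.4% lay that far and 0.676% contained a start. Of the 501 sites listed for NF-kB in WT with LPS alone, 45.9% lay that far.

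**Figure D1:**
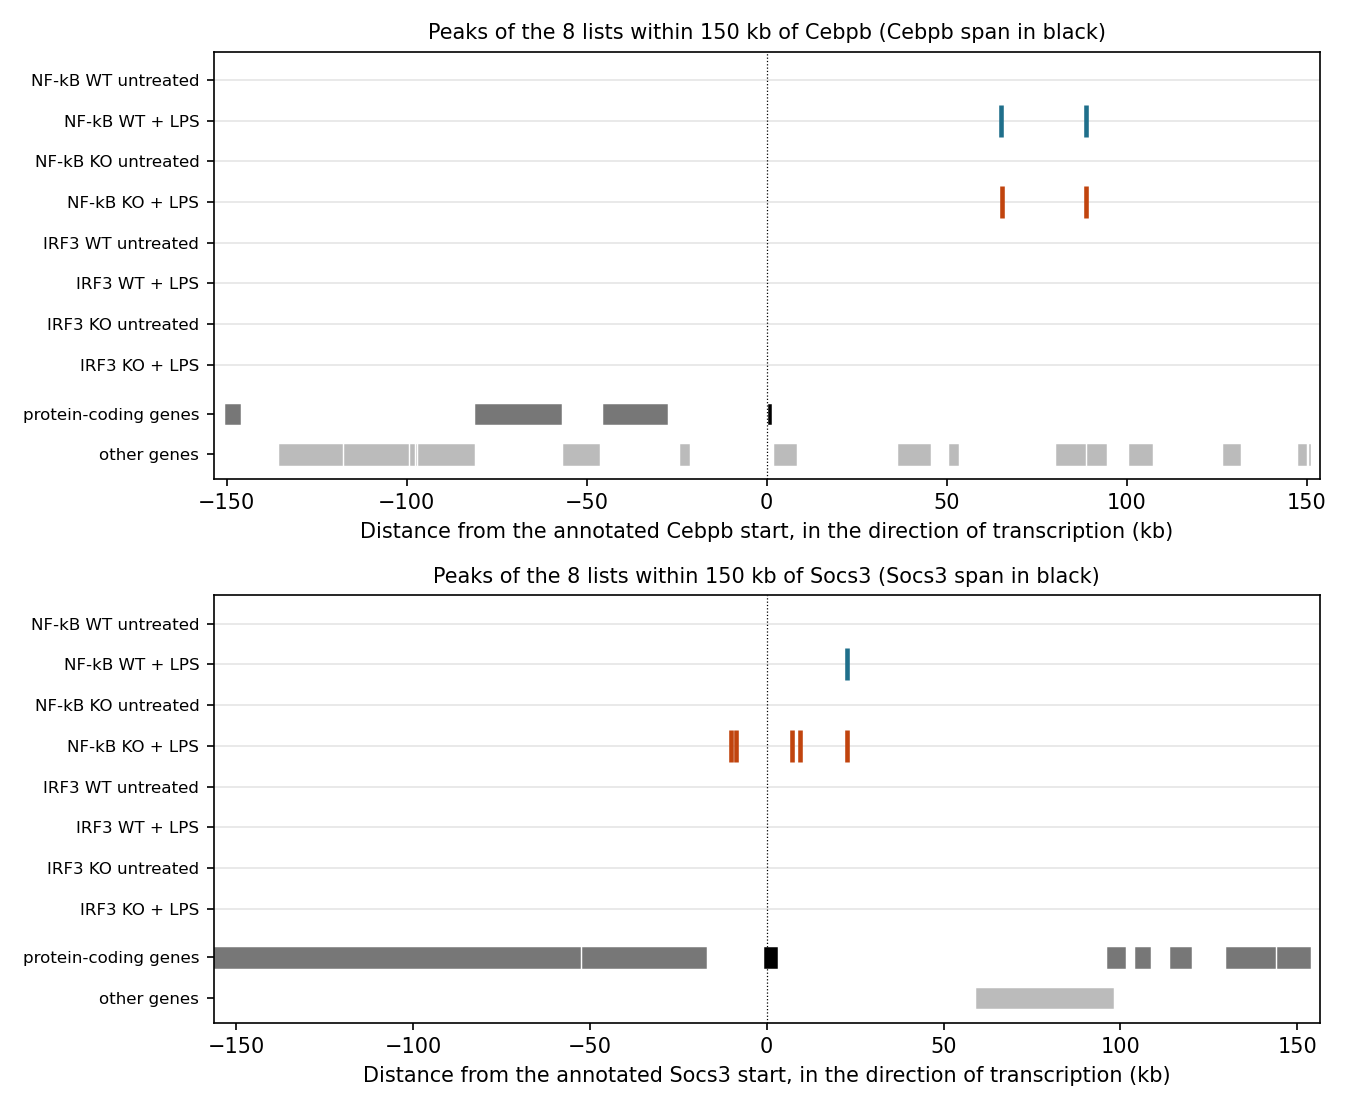
Peaks of the 8 lists (rows) around Cebpb (top) and Socs3 (bottom), as ticks at the peak middle against distance from the annotated start in kb, positive in the direction of transcription. Blue is WT and orange KO, grey bars are other genes. Ticks appear in the NF-kB rows with LPS alone, 2 in each genotype at Cebpb, 1 in WT and 5 in KO at Socs3.

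At Socs3, NF-kB was listed at 5 sites in KO with LPS and at 1 of these in WT with LPS. None was listed without LPS, and none for IRF3. Socs3 lies on chromosome 11 (117966079 to 117970336, minus strand), and its 5 sites stood on both sides of it within 33.3 kb. The site shared by both genotypes lay downstream, 22.8 kb from the annotated start. It spanned 294 bp in WT (chr11:117946463-117946756), 19322 bp from the gene. The KO peak spanned 446 bp there (chr11:117946337-117946782), at 19296 bp, and contained the whole WT peak. Their middles lay 50 bp apart.

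The other 4 sites were listed in KO with LPS alone, as a pair on each side of the gene. Downstream, a 266 bp peak (chr11:117959963-117960228) lay 5850 bp from the gene and a 254 bp peak (chr11:117962199-117962452) lay 3626 bp from it, with 1970 bp between them. Upstream, a 211 bp peak (chr11:117977902-117978112) lay 7565 bp from the gene and a 140 bp peak (chr11:117979506-117979645) lay 9169 bp from it, with 1393 bp between them. No site lay inside an annotated gene of any kind. Socs3 was the nearest protein-coding gene to 4 of the 5 sites. The outermost upstream peak was nearer to Pgs1, a gene of phospholipid synthesis, at 6651 bp. Its neighbour was almost midway, 7565 bp from Socs3 and 8184 bp from Pgs1.

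The shared Socs3 site had similar deposited q-values in both genotypes, 0.0314 in WT (rank 271 of 2494) and 0.0324 in KO (rank 172 of 2376). The 4 KO sites absent from WT had larger ones. Their q-values were 0.0615 (rank 257), 0.0680 (rank 271), 0.0916 (rank 330) and 0.788 (rank 1604), the last for the 140 bp peak. At a q-value under 0.05 Socs3 kept 1 site in each genotype, and the difference of 5 against 1 was no longer there. All 4 lie above that threshold, as do most peaks of either list. Only 227 of the 2376 KO peaks and 330 of the 2494 WT peaks with LPS were under it. The WT signal at these 4 sites is not known, since a list gives values for its own peaks alone.

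Many narrow KO peaks, at Socs3 and elsewhere, were not listed in WT. Of the KO peaks under 500 bp at ranks 1 to 200, 17 of 23 overlapped a WT peak with LPS (73.9%, 51.6 to 89.8%). Among them are the shared Socs3 site at rank 172 and the Cebpb sites at ranks 38 and 114. At ranks 201 to 400 it was 9 of 21 (42.9%, 21.8 to 66.0%), an interval that overlaps those of the ranks before and after. The Socs3 sites at ranks 257, 271 and 330 are among those that did not. Beyond rank 400 it was 192 of 654 (29.4%, 25.9 to 33.0%). In the other direction, 8 of 8 narrow WT peaks at ranks 1 to 200 overlapped a KO peak (100%, 63.1 to 100%), the farther Cebpb site among them. At ranks 201 to 400 it was 8 of 13 (61.5%, 31.6 to 86.1%), with the shared Socs3 site and the nearer Cebpb site among them. Beyond rank 400 it was 145 of 594 (24.4%, 21.0 to 28.1%). The replicate spread behind any of these listings was not measured.

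**Figure D2:**
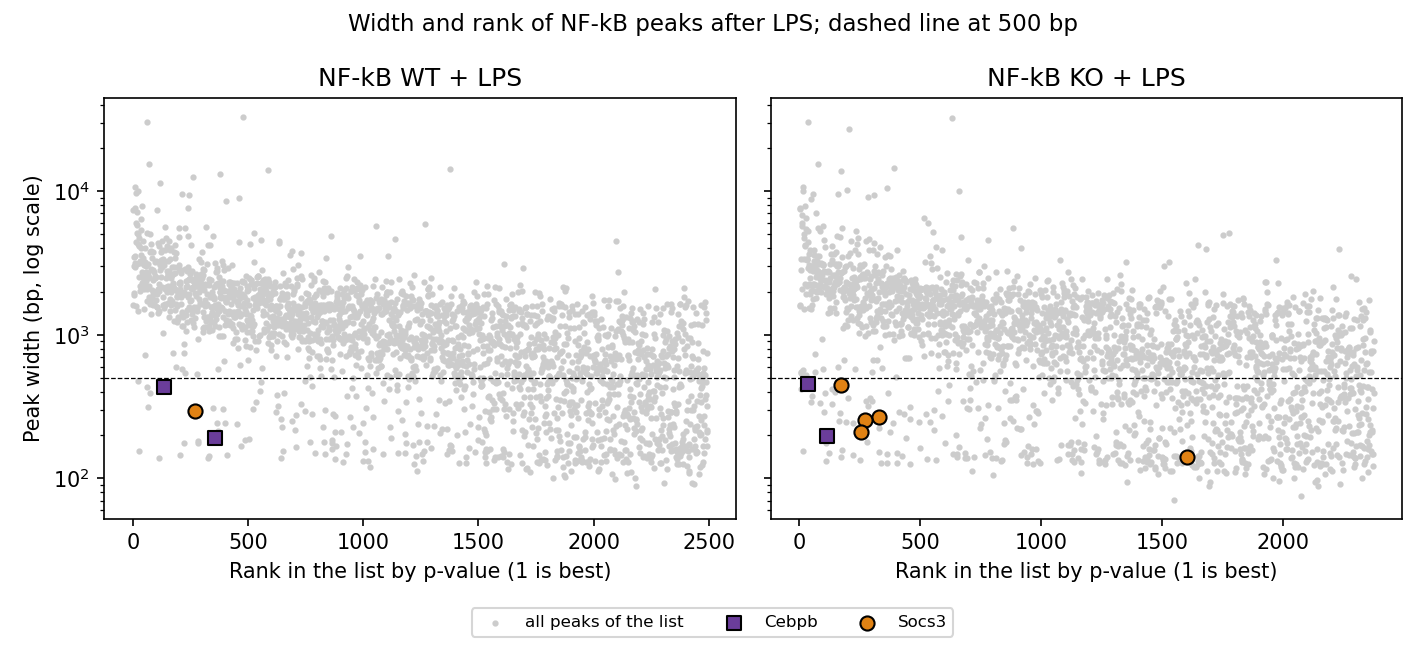
Width (bp, log scale) against rank by deposited p-value (1 is best) for NF-kB peaks with LPS in WT (left) and KO (right). Grey points are all peaks of the list, squares the Cebpb peaks and circles the Socs3 peaks, and the dashed line marks 500 bp. All 10 marked peaks lie under the line, and 9 of them rank between 38 and 358.

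All 10 peaks of both genes were narrow, from 140 to 456 bp with a median of 260 bp. That is near the size of the sheared fragments, whereas the median peak was 1035 bp in the WT list with LPS and 943.5 bp in the KO list with LPS. Peaks under 500 bp made up 24.7% of the former (615 of 2494) and 29.4% of the latter (698 of 2376). Narrow peaks were few among the best-ranked, with 21 in WT and 44 in KO at ranks 1 to 400. The Cebpb and Socs3 peaks supply 3 of these 21 and 6 of these 44.

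Around both genes the untreated and IRF3 lists had no peak over the distances given here. These distances were not compared with those of other genes, so they are not read as unusual. The untreated NF-kB peak nearest to Cebpb lay 3559 kb away in WT and 2814 kb away in KO. For IRF3 the nearest stood at 398 kb in both WT lists and at 3559 kb in both KO lists. Near Socs3 the closest untreated NF-kB peak was 1350 kb away in WT and 3643 kb away in KO, and the IRF3 distances ran from 1350 kb (KO with LPS) to 9439 kb (untreated WT). The first site outside the 150 kb window of Cebpb was also in both NF-kB lists with LPS. It lay 219356 bp from Cebpb (chr2:167909789-167910138) and 20611 bp from Ptpn1, a tyrosine phosphatase gene, with q-values of 0.473 in KO and 0.896 in WT. At Socs3 the next NF-kB peak with LPS was 1349 kb away in KO and 6109 kb away in WT.

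A peak within 150 kb is common for any gene, so its presence alone says little. In WT with LPS 20.9% of 21887 protein-coding genes had an NF-kB peak at that distance, and in KO with LPS 21.0%. Without LPS the shares were 13.6% in WT and 25.1% in KO. For IRF3 they were 8.89% (untreated) and 11.8% (LPS) in WT, and 14.4% (untreated) and 15.1% (LPS) in KO. Genes with a peak in both NF-kB lists with LPS and in none of the other 6 lists, as at Cebpb and Socs3, made up 1.49% (326 genes). These shares describe the setting of genes that were chosen for their peaks.

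The number of sites was less common. The cuts used here equal the counts of Cebpb and Socs3 themselves, so both loci pass them by construction. For Cebpb, 2.97% of genes had at least 1 site listed in both genotypes with LPS and in neither untreated NF-kB list, and 0.210% (46 genes at 7 loci) had at least 2. With no peak allowed in the other 6 lists, 27 genes at 4 loci were left. These loci hold Cebpb, the exchange factor gene Fgd2 with the kinase gene Pim1, the ferritin gene Fth1, and the prostaglandin synthase gene Ptges. These are only some of the 27 genes. Under the same rule Ube2v1 and Tmem189 stand beside Cebpb, and Mtch1 and Pi16 beside Fgd2. Others are Incenp, Best1 and Fads2 beside Fth1, and Ntmt1, Tor1a and Usp20 beside Ptges. The rule does not single out 1 gene of a locus. For Socs3, 0.247% of genes (54 at 18 loci) reached at least 5 NF-kB peaks in the KO list with LPS. A share of 0.146% (32 at 7 loci) had at least 4 sites listed in KO with LPS and not in WT with LPS. Under either count, the Socs3 locus was the 1 locus left when no peak was allowed in the other 6 lists, with 7 genes that share its sites (Afmid, Birc5, Tmem235, Tha1, Pgs1 and Dnah17 beside Socs3).

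**Figure D3:**
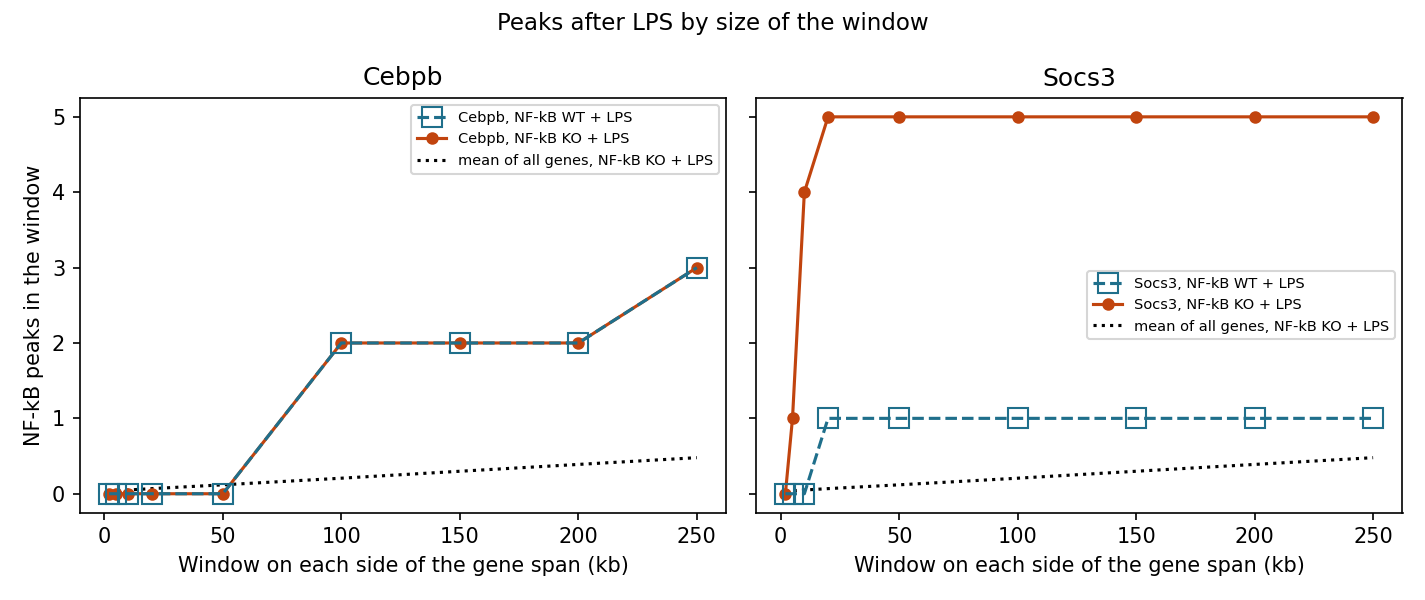
NF-kB peaks with LPS (y axis) within a growing window on each side of the gene span (x axis, kb) for Cebpb (left) and Socs3 (right). Open squares are WT, filled circles KO, and the dotted line is the KO mean over all protein-coding genes. Cebpb stands at 0 up to 50 kb, at 2 from 100 to 200 kb and at 3 at 250 kb in both genotypes, and Socs3 reaches 5 in KO and 1 in WT at 20 kb.

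Socs3 sites lay closer to their gene than Cebpb sites. Within 10 kb Socs3 had 4 peaks in KO with LPS and 0 in WT, and within 20 kb it had 5 and 1. The 4 peaks within 10 kb had deposited q-values from 0.0615 to 0.788, all above 0.05. Both genes were chosen for their peaks. Cebpb had 0 within 50 kb and 2 within 100 kb in each genotype. Over all protein-coding genes the mean in KO with LPS was 0.0493 peaks within 10 kb and 0.298 within 150 kb. In that list, 5 neighbouring peaks under 500 bp fitted into 33.3 kb or less at 2 places, Socs3 and a stretch near Sfi1. In WT with LPS there were 3 such places, near Sfi1, Gm17019 and Gm21190, and in untreated KO there were 5. The length was set from the Socs3 sites themselves.

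**Figure D4:**
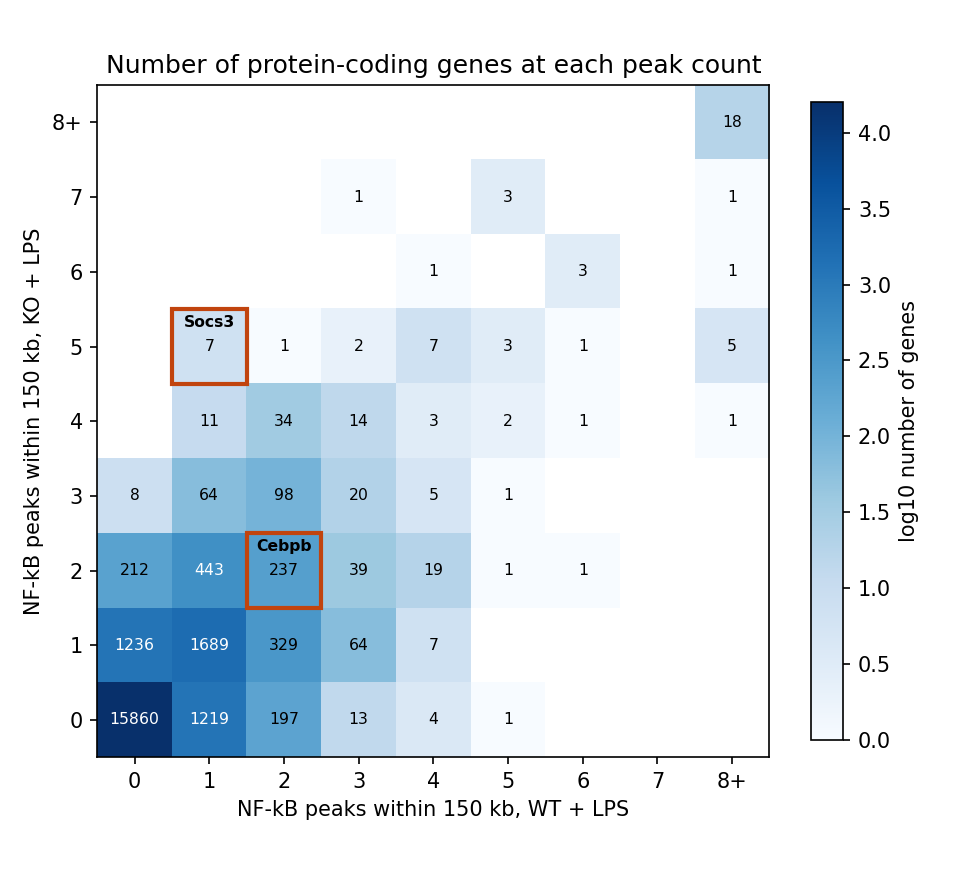
Number of protein-coding genes at each count of NF-kB peaks within 150 kb in WT with LPS (x axis) and KO with LPS (y axis), shaded by its log10, with 8 or more pooled. Outlined squares hold Cebpb, among 237 genes with 2 and 2, and Socs3, among 7 genes with 1 and 5.

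Genes that share a peak with Cebpb or Socs3 have similar counts by construction and were left out of the search for genes with a similar pattern. Among the rest, by counts over all 8 lists, the genes most like Cebpb were BC004004, Fgd2, LOC115488789, Mtch1 and Pi16, all on chromosome 17 and with the same best-ranked peak, with a summed difference of 0. Each had 2 peaks in WT and 2 in KO with LPS and none elsewhere, and 8 genes in all reached that difference. For Socs3 the most similar genes with none of its peaks were Best1, Fads2, Fads3, Fth1 and Incenp on chromosome 19, with 2 peaks in WT and 4 in KO with LPS and a summed difference of 2, which 25 genes reached. Neighbouring genes share the same peaks, so each group stands for 1 locus.

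Relatives of both genes gave a mixed picture. Of 6 C/EBP family genes, 2 had an NF-kB peak within 150 kb in WT with LPS and 2 in KO with LPS (33.3% in each, against 20.9 and 21.0% of all genes). The one beside Cebpb was Cebpd, another C/EBP factor of inflammation, with 1 wide site (1211 bp in WT, 1499 bp in KO) 144074 bp away in WT that was also in both untreated NF-kB lists. Of 8 SOCS family genes, 3 had a peak in WT and 3 in KO with LPS (37.5% in each, against the same 20.9 and 21.0%). Each family count includes the gene that was chosen for its peaks, Cebpb or Socs3. For this reason, and with so few genes, neither family count is read as a difference from all genes. Socs5 had 1 wide peak in all 4 NF-kB lists, 93070 bp away in WT with LPS. Socs6 had 1 peak in WT with LPS and 3 in KO with LPS, the nearest at 144057 and 140540 bp.

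Of 27 genes of IL-6 and JAK-STAT signalling, on which SOCS3 acts, 6 had an NF-kB peak within 150 kb in WT with LPS and 5 in KO with LPS (22.2 and 18.5%), close to the 20.9 and 21.0% of all genes. The named members with a site in both lists were Il6st, Pias3, Jak1 and Csf3r. Il6st encodes the receptor subunit gp130 and had a site 31940 bp away in WT and 32013 bp away in KO, in a region also listed in untreated KO cells. Csf3r, the G-CSF receptor gene, had a narrow site absent without LPS, 179 bp wide and 92865 bp away in WT, 270 bp wide and 92793 bp away in KO. Jak1, a kinase gene of the same receptors, had a site 47867 bp away in WT and 48128 bp away in KO, 1246 and 1004 bp wide. Pias3, an inhibitor of STAT3, had 1 wide site (4043 and 4329 bp) that was also listed without LPS. Of 26 LPS-responsive transcription factor genes, 5 had a peak in WT and 8 in KO with LPS (19.2 and 30.8%, against 20.9 and 21.0% of all genes). With so few genes these counts are not read as a difference from all genes. Among these genes Batf and Bcl3 had a peak at a distance of 0 from their spans in both genotypes. It was 228 bp wide at Batf in WT and 146 bp wide at Bcl3 in KO, each the only peak in its list. Bcl3 had 2 peaks in WT, the narrowest 170 bp, and Batf had 2 in KO, the narrowest 259 bp. Whether the narrowest was the one at the span was not recorded. Nfkb1 had 1 wide site 108510 bp away in WT that was also listed untreated. The members were counted and no test was made on these lists.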

How the data were processed

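The series has 44 samples. Used here are 8 peak lists from 22 ChIP-seq samples, while bisulfite, ATAC-seq and input samples were not analysed. Per the labels, all replicates of a group point to 1 list, so values belong to merged replicates. Per the submitters' processing notes the build is mm10, and the tools named include MACS2 2.1.1 and HOMER 4.9, with no role stated. Aligner, peak settings and merging: not given in the sources used here. Each deposited peak carries a score, a signal value (also treated as a score of unstated normalization), a p-value and a q-value, all deposited by the authors. Peaks were ranked within a list by p-value, then signal, width and position.

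Genes came from the RefSeq table of GRCm38.p6 (21887 protein-coding genes on chromosomes 1 to 19, X and Y), which gives spans without exons. Distance is the number of bases between peak and span. Starts, strands and sequences came from the RefSeq table of start windows. The genome sequence was not used. The members, gene lists and rules were chosen with earlier results of these data known. Named genes are Cebpb, Socs3, the gene nearest to each site, up to 6 members per gene list with a peak in both NF-kB lists with LPS, and up to 5 genes of the most similar counts. Pim1, Ptges, other genes at the same loci and the genes at dense stretches were named after their values were seen. The use of non-coding start windows for a distal site was also decided after values were seen. Counting was checked on simulated peaks. Python 3.11.15, numpy 2.4.6 and pandas 2.3.3 were used. Alternatives changed the window, the peak filter, the joining of sites and the measure of distance.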

Additional observations from a re-analysis of the deposited data

How the results depend on the processing

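For each gene, the numbers of sites, of sites in both NF-kB lists with LPS, of these absent from untreated NF-kB lists, and of sites in an IRF3 list were recomputed under 9 alternatives, which gave 72 values. Of these, 66 stayed within 1.5 times the main value. With a window of 50 kb the first 3 Cebpb counts fell from 2 to 0, since its sites lie beyond that distance. With a q-value under 0.05 the Cebpb sites in both lists, and those also absent from untreated lists, fell from 2 to 1, and the Socs3 sites fell from 5 to 1. The IRF3 count was 0 for both genes under all 9 alternatives, but none of them could have changed it. The nearest IRF3 peak lay 398 kb from Cebpb and 1350 kb from Socs3, beyond the widest window of 250 kb. The filter for peaks under 500 bp could not remove a site either, since all peaks of both genes are narrower. The share of unchanged values is therefore no measure of robustness. Cut to the 1169 best-ranked peaks per list, Socs3 had 4 sites. No paired analysis was possible because each list merges its replicates, and for the same reason no replicate could be left out. Read depth was not used here, so a site missing from a list may have been below what that list could detect.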
